A study of Bos taurus with 16 samples.

Results

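The colony-stimulating factors and their receptors comprised 7 genes, CSF1, CSF1R, CSF2, CSF2RA, CSF2RB, CSF3 and CSF3R. They were looked up on a bovine whole genome oligonucleotide array by the gene name, or by the symbol in brackets in the description, that the scanner files give each probe. This found 6 of the 7 genes, each by 1 of the 21475 probes of the array (20468 gene names), and none for CSF2RA. CSF1R, CSF2RB and CSF3R are listed there as predicted bovine genes with the human symbol in brackets, and the accession of the CSF3R probe was not among those of the reference table. Another 3 probes were found by description or accession after the names had been searched: 1 for each of LOC511847 and LOC614896, described as the granulocyte-macrophage receptor alpha chain, and a second probe for CSF2RB. They are given beside the 6 and are not counted with them.

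CSF1, CSF2 and CSF3 are secreted cytokines that control how many macrophages, monocytes and granulocytes are made and how long these cells live. CSF1 acts through CSF1R, a receptor tyrosine kinase that is carried by nearly all mononuclear phagocytes and that macrophages need in order to survive. CSF2 acts through its own alpha chain, CSF2RA, together with the beta chain CSF2RB, which also serves interleukin 3 and interleukin 5, and CSF3 acts through CSF3R, which is best known from neutrophils and is also present on monocytes. CSF1 is made by the uterine epithelium of many mammals in pregnancy, when macrophages gather in the endometrium.

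The study compared CD14+ cells of the endometrium with CD14+ cells of the blood in 4 pregnant cows, killed at an abattoir on about day 164 (animal 1), 239 (animal 2), 242 (animal 3) or 248 (animal 4) of pregnancy. Endometrial cells came from the interplacentomal endometrium of the uterine horn with the fetus, minced and digested with collagenase, and blood cells from the mononuclear fraction of cardiac blood, which was not digested. Cells of both tissues were taken on a density gradient, gated on the monocyte region and sorted in 2 rounds with an antibody to CD14, a receptor for bacterial lipopolysaccharide that marks monocytes and many macrophages, and their RNA was amplified before labeling. There was no non-pregnant cow, and tissue and digestion cannot be told apart. Each animal gave 1 endometrial and 1 blood preparation, hybridized together on 2 two-color arrays, so that 16 samples on 8 arrays stood for 4 animals. The dyes were exchanged between the 2 arrays of animals 1, 2 and 4 and ran the same way on both arrays of animal 3. Animal 1 alone was earlier than day 239, and its day of pregnancy and the animal itself cannot be told apart.

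Sequences of the probes, as deposited with the scanner files, are shown because each level below is the signal at that stretch and at no other part of the transcript. The first 30 bases of the 60 on the array are given for the 6 probes found by name.
CSF1: acaagcaagtgagggggcggccaggccccc
CSF1R: aactaacagtcacaaagtggaatgtccctg
CSF2: ctggcttgttcagggccatgttgaccctga
CSF2RB: tggacctatgcgcattaagagagaagtcca
CSF3: tctggggtcccacaaatttgctggggaaac
CSF3R: agaagagaatgccagtaagcccatcactaa

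For the 3 probes found by description or accession all 60 bases are given, since they were not found by name. The letters are 5′ to 3′, and no base is marked.
LOC511847: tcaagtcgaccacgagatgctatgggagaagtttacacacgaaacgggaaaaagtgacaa
LOC614896: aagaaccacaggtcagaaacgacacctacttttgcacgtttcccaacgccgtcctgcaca
CSF2RB, second probe: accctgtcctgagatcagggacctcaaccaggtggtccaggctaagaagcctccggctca

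Guanine and cytosine made up 38.3% of the bases of the CSF1R probe and of the first CSF2RB probe, 43.3% for CSF3, 45% for CSF3R, 55% for CSF2 and 60% for CSF1 and for the second CSF2RB probe. Probes differ in how brightly they bind, and the levels of these probes are therefore not compared with each other. A sum over a list of markers adds intensities of different probes, and bright probes weigh most in it. Levels are normalized intensities on a log2 scale, as the mean of the 2 arrays of an animal, on which 1 unit is a doubling. Probes that were well above background in none of the 16 channels had a median level of 5.99, with 95% of them under 6.08, and the median of all tested probes lay between 8.14 and 8.17 in every channel. For the 6 probes the 2 arrays of an animal differed by a median of 0.08 and by at most 0.55.

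Markers of cell types were examined first, because a receptor level in a sorted preparation depends on which cells are in it, and fewer cells of a type and less RNA per cell cannot be told apart. The CD14 probe in blood was at 14.24 in animal 1 and at 6.30, 7.63 and 6.69 in animals 2 to 4. In endometrium it was at 12.17, 6.41, 8.14 and 6.82 in the same order. The gene of the antigen used for sorting was well above background in all 16 channels. It was yet within 2 log2 units of the background level in the blood of 3 animals and within 1 unit of it in the endometrium of animals 2 and 4, low for cells labeled CD14+. That label rests on CD14 protein at the cell surface, and the paper reports high purity of the sorted cells of both tissues by flow cytometry. RNA at this probe does not measure the protein, and why the RNA level was low was not tested. The summed intensity of 11 blood monocyte markers, CD14 and genes such as S100A8 and FCN1, was 205000 in the blood of animal 1 and 4370 to 7510 in the blood of the others. The summed intensity of 14 T and NK cell markers, which include CD3E and CD8A, was 3730 in the blood of animal 1 and 28000 to 55800 in the blood of the others, and that of 8 B cell markers was 6770 against 14900 to 38900.

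The tissue macrophage markers, among them the complement genes C1QA, C1QB and C1QC and the scavenger receptor MSR1, summed to 219000, 7130, 66200 and 37300 in the endometrium of animals 1 to 4 and to 20100, 1890, 3700 and 2810 in the blood. Of these 15 genes, 13 were higher in endometrium and 0 were lower, counting fold changes above 2 whose p before adjustment was 0.05 or less. Of all tested probes, 5.27% were higher and 5.11% lower by this count. T and NK cell markers were also higher in the endometrium of every animal as a sum, at 38500, 163000, 70600 and 64800 in animals 1 to 4 against 3730, 47000, 28000 and 55800 in blood. By the same count, 6 of 14 were higher and 0 lower, CD3E and CD2 among the 6. In the endometrium of animal 1 the sum was carried mainly by GZMB, at 14.26, and NKG7, at 13.83. The T cell markers CD3D (-0.41), CD3G (-0.13), CD8A (-0.06) and LCK (-0.15) and the NK cell receptor NCR1 (-0.26) had mean log2 ratios below 0. Epithelium markers summed to 13000 to 113000 in endometrium against 1440 to 3890 in blood, and trophoblast markers to 7120 to 19800 against 1390 to 3000. In the endometrium of animals 2 and 4 the epithelium sum was mostly SERPINA14, at 13.50 and 15.61. By the count above, 7 of 12 epithelium markers were higher and 0 lower. Of 8 trophoblast markers tested, 5 were higher and 1 was lower, PAG1 at a mean log2 ratio of -1.44. Stroma markers reached 119000 in the endometrium of animal 1 and were at 4560 or less in the other endometrial and all blood preparations. The part of these cells in the levels that follow was not tested.

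**Figure D1:**
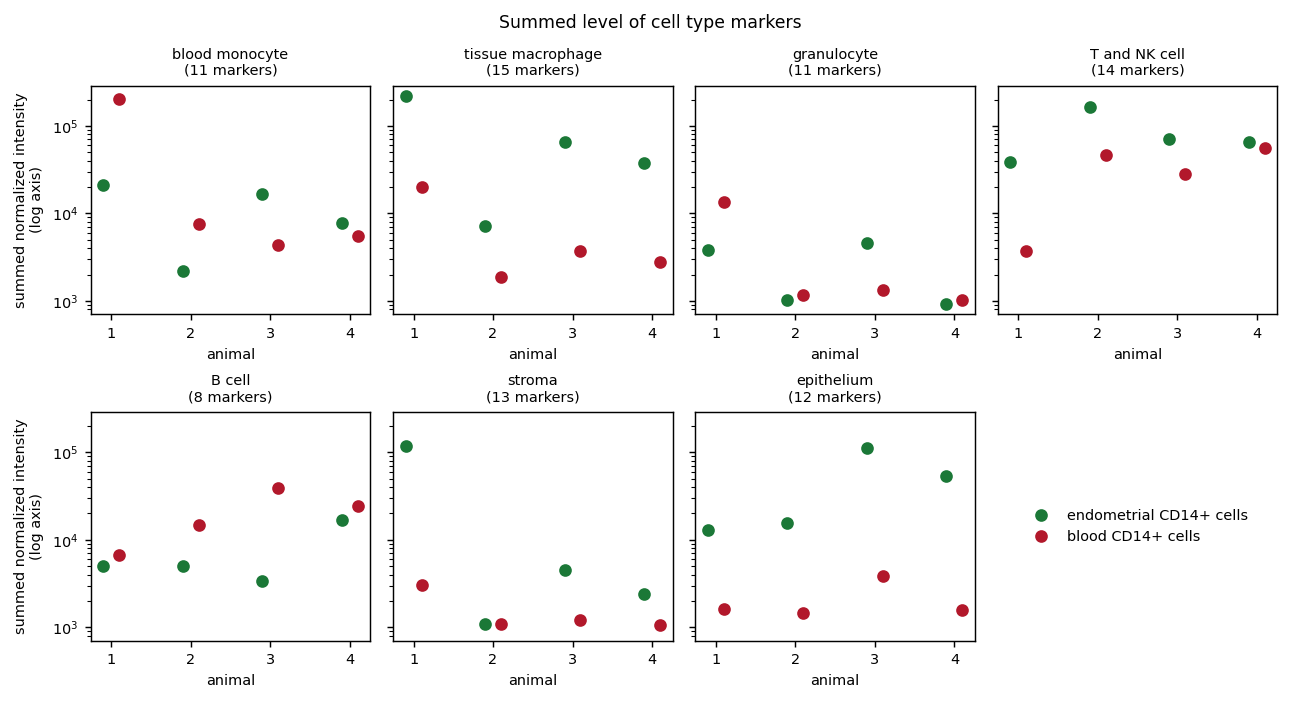
Summed normalized intensity (log axis) of 7 lists of cell type markers in the endometrial (green) and blood (red) CD14+ cells of animals 1 to 4, 1 point for each animal and tissue. Blood monocyte markers reach 205000 in the blood of animal 1 and no more than 7510 in the blood of the others, where T and NK cell and B cell markers are higher.

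CSF1R was higher in endometrial than in blood CD14+ cells of every animal, as were 10.2% of all tested probes. In endometrium its level was 14.40, 9.15, 11.27 and 10.95 in animals 1 to 4. In blood it was 13, 6.64, 8.13 and 6.95 in the same animals. Animal 1 was the highest in both tissues and animal 2 the lowest in both, so that the tissues overlapped between animals although not within any of them. Within animals the log2 ratio, endometrium over blood, came to 1.40, 2.51, 3.14 and 4.00, with a mean of 2.76 ± 0.45 (SE, n = 4), a 6.78-fold difference (95% interval of the log2 ratio 1.63 to 3.90). In limma's moderated test the p was 0.00128 before and 0.232 after Benjamini-Hochberg adjustment over the 16653 probes tested, and CSF1R did not reach the 0.05 set for the adjusted value. By p, CSF1R stood at rank 91 among the tested probes. The study, by its own model and criteria, listed CSF1R among the genes overexpressed in endometrium. Left out in turn, the animals gave ratios of 2.35 to 3.22.

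In both tissues the order of the animals by CSF1R, from 1 through 3 and 4 to 2, was also their order by the summed tissue macrophage markers and by CD14. In endometrium the summed stroma and blood monocyte markers had this order as well, so it was not particular to macrophage markers there. The share of all tested probes with this order was not computed. CD14 itself did not share the difference between tissues, with a mean log2 ratio of -0.33 ± 0.48 and ratios of -2.08, 0.11, 0.51 and 0.13. CD68, a lysosomal glycoprotein of macrophages, had ratios of 1.95, -0.13, 1.37 and 2.30, a mean of 1.38 ± 0.44 (unadjusted p = 0.0244, adjusted p = 0.276 in the limma fit). Over the 8 preparations of 4 animals, the named genes whose levels followed CSF1R most closely were CTSB (Pearson's r = 0.995), the gene of the lysosomal protease cathepsin B, RNASE6 (0.988), RNF217 (0.983), CCL8 (0.980), a chemokine that attracts monocytes, and CYP27A1 (0.979). These points share 4 animals and the range is set largely by animal 1, and the values are a description.

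CSF1, the ligand of CSF1R, varied little. Its level in endometrium was 7.48, 7.33, 7.60 and 7.26 in animals 1 to 4, and in blood it was 7.69, 7.42, 7.34 and 7.24. The probe was well above background in all 16 channels, and the tissues overlapped throughout. Its mean log2 ratio was -0.01 ± 0.21 (SE, n = 4; adjusted p = 0.995 in the limma fit), with a 95% interval of -0.53 to 0.52, and 2 of 4 animals had more of it in endometrium. IL34, the other ligand of CSF1R, was near background, at 5.97 to 6.29 in endometrium and 6.17 to 6.67 in blood, with a mean log2 ratio of -0.19 ± 0.20. It was well above background in 8 of 8 channels of blood and 2 of 8 of endometrium. In endometrium it was lower in 4 of 4 animals, as were 14.7% of all tested probes.

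**Figure D2:**
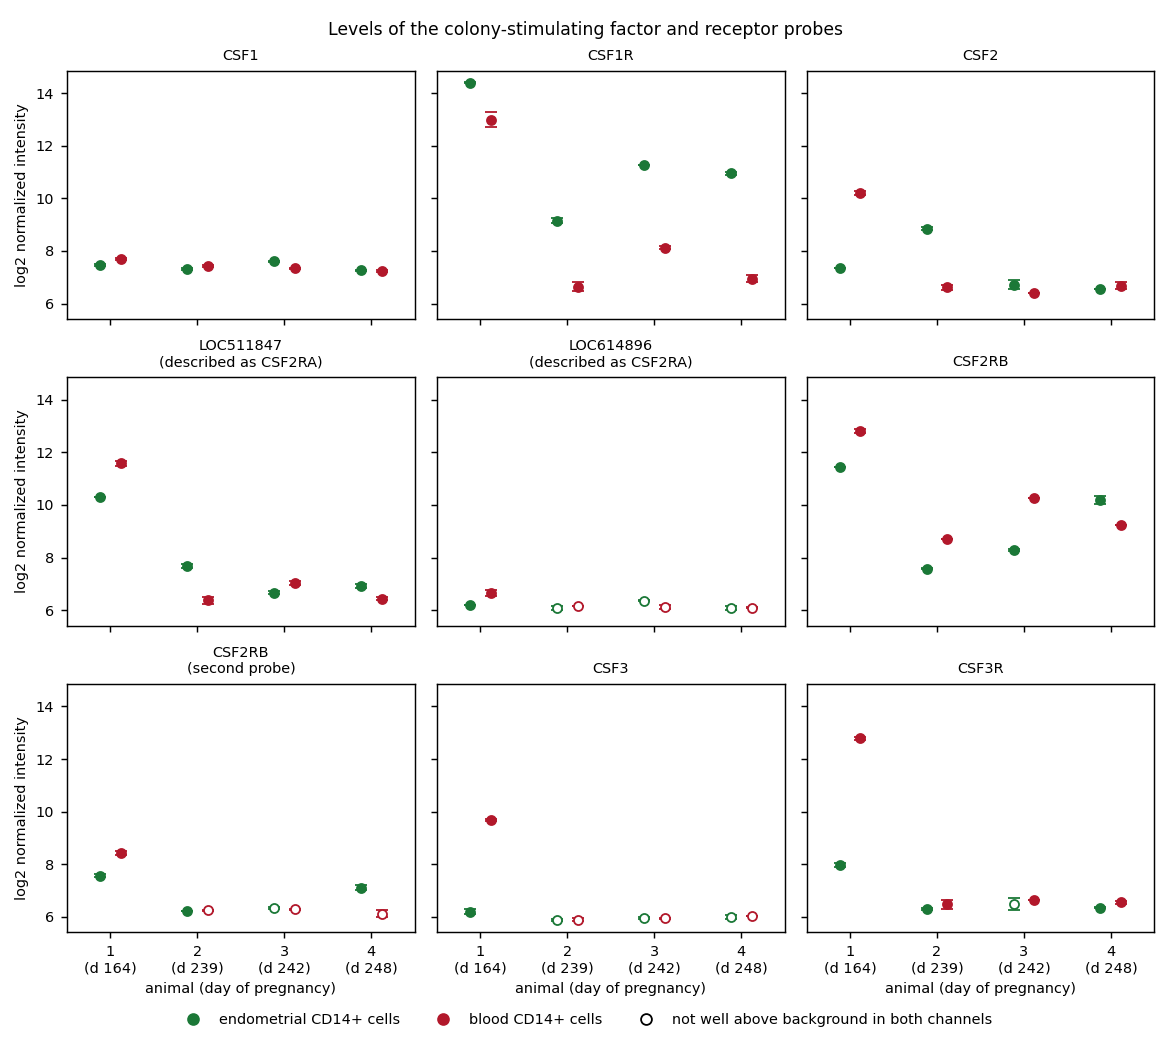
Log2 normalized intensity of the 9 probes in endometrial (green) and blood (red) CD14+ cells of animals 1 to 4 (day of pregnancy in parentheses); circles are means of 2 arrays, dashes the 2 arrays, and open circles mark values that were not well above background on both. CSF1R is higher in endometrium in 4 of 4 animals, and CSF3R in blood reaches 12.79 in animal 1 and no more than 6.65 in the others.

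CSF3R differed between tissues mainly in animal 1. Its level in blood was 12.79 in animal 1 and 6.48, 6.65 and 6.55 in the other animals, and in endometrium it was 7.98, 6.29, 6.49 and 6.35. The blood cells of animal 1 thus stood 6.14 log2 units above the highest blood level of the other animals, a gap matched or passed by 0.126% of the tested probes. The endometrial cells of animal 1 stood 1.49 above the others, and the remaining 6 values lay within 1 unit of the background. The log2 ratio was -4.81, -0.19, -0.16 and -0.19, lower in endometrium in 4 of 4 animals, as were 14.7% of all tested probes. Its mean was -1.34 ± 0.88 (SE, n = 4; unadjusted p = 0.186, adjusted p = 0.505 in the limma fit). Without animal 1 it was -0.18, and the call was the same, not differentially expressed.

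CSF3, the ligand of CSF3R, was also a matter of animal 1. In blood its level was 9.69 in animal 1 and 5.89, 5.94 and 6.04 in the others, and in endometrium it was 6.20 in animal 1 and 5.88, 5.96 and 6.0 in the others. It was well above background in both preparations of animal 1 and on no array of the other animals. The probe therefore passed the filter on dim probes in neither tissue and was not tested, and its log2 ratio in animal 1 was -3.49.

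The named genes most like CSF3R over the 8 preparations were S100A7 (Pearson's r = 0.997), NINJ1 (0.995), SLC13A5 (0.994), S100A9 (0.994), which encodes a calcium-binding protein abundant in neutrophils and monocytes, and HP (0.993), the gene of haptoglobin. Each of them was highest in the blood of animal 1, S100A9 at 12.16 against at most 6.35 in the blood of the others and HP at 14.03 against at most 6.74. The granulocyte markers summed to 13400 in the blood of animal 1 and to 1030 to 1350 in the blood of the others. Most of that sum was BPI, a granule protein that binds bacterial lipopolysaccharide, at 13.56 in the blood of animal 1 and at most 8.43 in that of the others. Of the 11 markers, 3 were over 1 log2 unit above the other animals there, as were 10.3% of all tested probes. The median gap of the list was -0.01. MPO, the gene of myeloperoxidase, was at 6.56 in the blood of animal 1 and 6.47 to 6.85 in the others. The granule protein genes MMP8 and CATHL1, the first a collagenase of neutrophils, were well above background in no channel of either tissue, and the interleukin 8 receptor CXCR1 was at 8.31, 6.74, 7.30 and 6.52 in blood. Whether granulocytes or monocytes carried the CSF3R signal was not tested.

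CSF2RB, the beta chain, was well above background in all 16 channels by its first probe, as CSF1R was. The level of that probe in blood was 12.80, 8.71, 10.27 and 9.25 in animals 1 to 4, and in endometrium it was 11.44, 7.58, 8.28 and 10.19. Blood was higher in animals 1, 2 and 3 and endometrium in animal 4. The log2 ratios were -1.36, -1.13, -1.98 and 0.95, and their mean of -0.88 ± 0.51 (SE, n = 4; unadjusted p = 0.141, adjusted p = 0.450 in the limma fit) had a 95% interval of -2.17 to 0.40. Without animal 4 the ratio was -1.49, with an unadjusted p of 0.00698 and an adjusted p of 0.202 in the limma fit.

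The second CSF2RB probe disagreed with the first in animals 2 and 3. Its level was 8.43, 6.24, 6.28 and 6.11 in blood and 7.56, 6.23, 6.34 and 7.11 in endometrium, with ratios of -0.87, -0.02, 0.07 and 0.99. In animals 2 and 3 it lay near background in both tissues, where a difference like that of the first probe could not be seen. Both probes gave a lower level in endometrium in animal 1 and a higher one in animal 4.

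CSF2, the ligand, had no common direction. It was at 7.34, 8.85, 6.72 and 6.55 in endometrium and at 10.20, 6.62, 6.40 and 6.68 in blood of animals 1 to 4. The highest value was that of the blood cells of animal 1 and the next that of the endometrial cells of animal 2, the preparation with the highest sum of T and NK cell markers (163000), whose part in it was not tested. The log2 ratios were -2.86, 2.23, 0.32 and -0.12. Their mean of -0.11 ± 0.80 (SE, n = 4; adjusted p = 0.972 in the limma fit) had a 95% interval of -2.13 to 1.91, and it became 0.81 without animal 1.

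The probe of LOC511847, described as the alpha chain CSF2RA, stood at 11.59, 6.37, 7.03 and 6.44 in blood and at 10.31, 7.68, 6.66 and 6.92 in endometrium. Animal 1 was the highest in both tissues. The log2 ratios were -1.28, 1.30, -0.37 and 0.48, with a mean of 0.03 ± 0.46 (SE, n = 4; adjusted p = 0.990 in the limma fit). The probe of LOC614896 was well above background in the preparations of animal 1 alone, at 6.66 in blood and 6.20 in endometrium, and was not tested. Of the cytokines that share CSF2RB, IL3 exceeded background clearly in 4 of 8 channels of blood and 0 of 8 of endometrium, with 7.64 in the blood of animal 2 as its highest level, and IL5 in none of either tissue. IL3RA was not found by name.

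**Figure D3:**
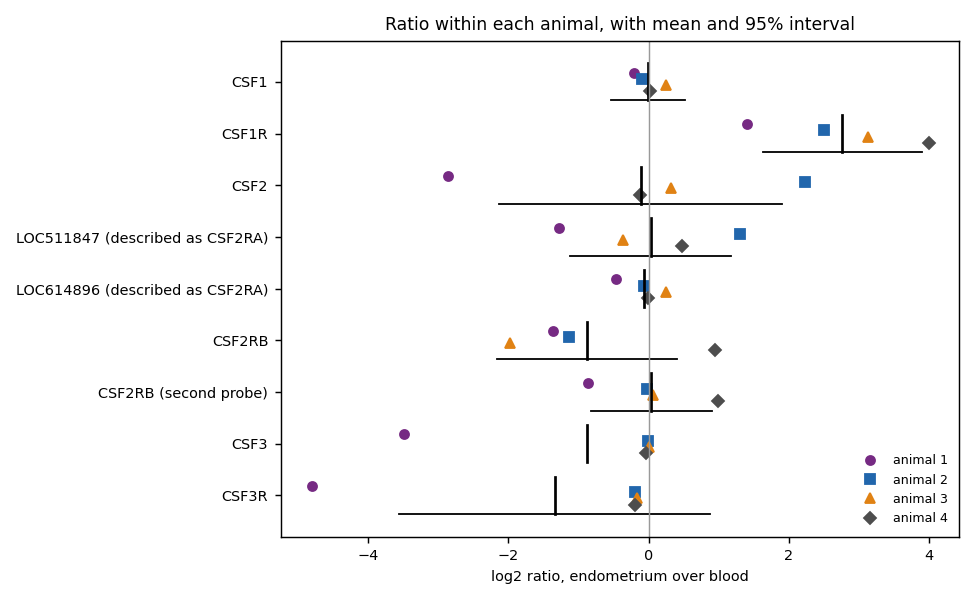
Log2 ratio of endometrium over blood within each animal for the 9 probes (animal 1 circles, 2 squares, 3 triangles, 4 diamonds), with the mean as a vertical bar and, for the 7 probes tested, the 95% interval of the limma fit as a line below. The CSF1R ratios run from 1.40 to 4.00, all above 0, and those of CSF3R and CSF3 are far from 0 in animal 1.

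Of the 6 probes, 5 were tested. With the fold change set at over 2 throughout, 0 of the 5 had an adjusted p of 0.05 or less in the limma fit, where 0.0661% of the 16653 tested probes (11) had one. Counted by p before adjustment, 1 of the 5 passed, CSF1R, where 10.4% of all tested probes did. For none of the 5 did the ranges of the tissues stand apart, which they did for 5.44% of the tested probes.

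For most of these genes the blood cells of animal 1 stood apart from those of the other animals, a comparison made after the values were seen and given with no test. The level in the blood of animal 1 was the highest of the 4 blood levels for all 6 probes. The gap to the next animal was over 1 log2 unit for 5 of the 6, all but CSF1, and for 4 of the 5 tested, where 10.3% of all tested probes had such a gap. It measured 6.14 for CSF3R, 4.87 for CSF1R, 3.65 for CSF3, 3.53 for CSF2 and 2.53 for CSF2RB, and 0.27 for CSF1. LOC511847 had a gap of 4.56, which 0.673% of the tested probes matched or passed, and for CSF1R that share was 0.516%. In endometrium animal 1 exceeded the others by over 1 unit for 3 probes, CSF1R by 3.13, CSF3R by 1.49 and CSF2RB by 1.24, where 6.25% of all tested probes did so. The same preparation of blood had the monocyte markers and the low T, NK and B cell markers given above, and the part of cell composition in the gaps was not tested.

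Around the receptors, 77 genes of related ligands and receptors, receptor signaling, myeloid transcription factors and inflammatory cytokines were found on the array and 71 were tested. None was called after adjustment in limma. Counted as above by p before adjustment, 4 were higher in endometrium (5.63%) and 9 were higher in blood (12.7%), where the shares of all tested probes were 5.27% and 5.11%. The values below are log2 ratios of endometrium over blood as mean ± SE over 4 animals, and no p falls under the threshold after adjustment.

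Among related ligands and receptors, 8 of 12 genes found were tested, with a median log2 ratio of -0.20 where that of all tested probes was -0.023. Only THPO, the gene of thrombopoietin, passed, at -1.18 ± 0.39. KIT, the receptor of stem cell factor and a relative of CSF1R, was at 1.06 ± 0.42 and higher in endometrium in 4 of 4 animals, with an unadjusted p of 0.0506 (adjusted p = 0.329 in the limma fit), and did not pass.

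All 36 genes of receptor signaling found were tested, and their median log2 ratio was -0.11. The kinase gene MAPK3 passed upward at 1.17 ± 0.25. LYN, a Src family kinase of myeloid and B cells, passed downward at -1.91 ± 0.67, with ratios of -1.03, -3.38, -3.29 and 0.08, GRB2, an adaptor of receptor tyrosine kinases, at -1.62 ± 0.45, and STAT5B, a transcription factor that CSF2 and CSF3 receptors activate, at -1.17 ± 0.22. STAT3, which CSF3R activates, passed as well, at -1.16 ± 0.31. B cell markers were also lower in endometrium, 4 of 8 at the same threshold and 0 higher, where 5.11% and 5.27% of all tested probes were. Their part in the LYN value was not tested.

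Of the myeloid transcription factors, 17 were tested, with a median log2 ratio of -0.33. KLF4, a factor of monocyte differentiation, at 2.10 ± 0.56 and EGR1, an immediate early gene, at 1.84 ± 0.39 passed upward, and BCL6 at -1.05 ± 0.34 downward. By the same count, 9 of 13 immediate early and heat shock genes were higher in endometrium and 0 lower, where 5.27% and 5.11% of all tested probes were, in cells that had been digested where blood cells had not, and the part of the digestion was not tested. SPI1, the factor PU.1 on which the CSF1R promoter depends, did not pass. Its level was 13.98, 9.69, 12.72 and 10.65 in blood and 12.86, 7.69, 10.19 and 11.14 in endometrium, with a mean log2 ratio of -1.29 ± 0.53 (unadjusted p = 0.0553, adjusted p = 0.338 in the limma fit). Its ratios of -1.12, -2.0, -2.53 and 0.49 had the sign of those of CSF2RB in every animal and, in animals 1 to 3, the opposite sign to those of CSF1R. The same signs were seen for SYK, ADAM17 and LYN and for the B cell markers CD79A and PAX5, and are thus not particular to SPI1 and CSF2RB. The share of all tested probes with these signs was not computed.

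Among inflammatory cytokines, 10 of 12 were tested, with a median log2 ratio of -0.34. IL1B at -2.0 ± 0.72 and IL8, the neutrophil chemokine, at -1.98 ± 0.58 passed downward and IL18 at 1.05 ± 0.34 upward. IL1B was at 15.33 in the blood of animal 1 and at 8.40 to 9.55 in the blood of the others, and IL8 at 15.11 against 10.28 to 11.06. IL6 did not pass, with 14.92 in the blood of animal 1 and at most 8.71 in the blood of the others. In the blood of animal 1, 8 of the 12 cytokine genes were over 1 log2 unit above the other animals, where 10.3% of all tested probes were. CSF2, CSF3, CSF2RB and CSF3R had such a gap as well, as given above. In contrast, IFNG at 6.37, IL4 at 5.94 and TGFB1 at 8.09 were lower in the blood of animal 1 than in that of any other animal.

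**Figure D4:**
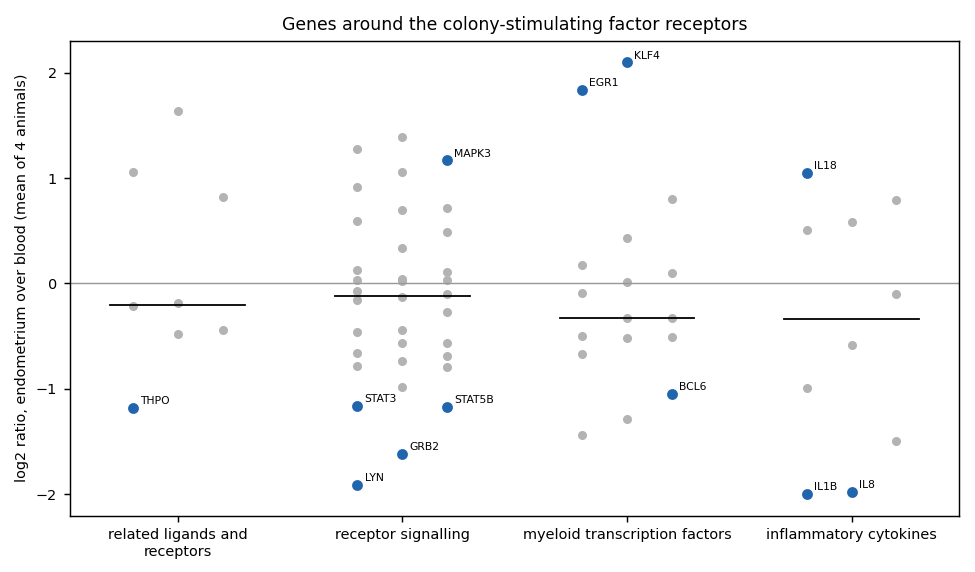
Log2 ratio of endometrium over blood (mean of 4 animals) for the tested genes of 4 lists around the colony-stimulating factor receptors; blue points are genes with p before adjustment of 0.05 or less and over 2-fold change, and lines are medians of all tested genes of a list; 1 gene that passed is not drawn. Among the genes drawn, KLF4 is the highest at 2.10 and IL1B the lowest at -2.0.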

How the data were processed

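The authors extracted the 8 arrays with Agilent Feature Extraction (9.5 in the submitters' processing notes, 10.5.1.1 in the file headers), and their methods name lowess within arrays and quantile normalization. The deposited scanner files hold median spot and background intensity for both dyes, and the deposited value table holds the authors' log2 values, which are the scanner's processed signal after quantile normalization. Within an animal the files of the 2 technical replicates seem to have changed places: a column of the table matched its dye in the partner replicate's file by rank for 100% of probes (probe means within 0.001), and its dye in its own file for 0.0792% to 0.689%. Each file was therefore read as its partner's, the order of dyes that the study's methods also give.

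Intensities were corrected by normexp (offset 50) and normalized by loess within arrays and quantiles over the 16 channels in limma 3.58.1 (R 4.3.3, statmod 1.5.0). Spots of a probe were averaged, and a probe was tested if well above background in at least 4 of 8 channels of 1 tissue, which 16653 of 21475 were. In a channel 63.1% to 81.5% of probes were well above background, and no spot was saturated. The ratio of endometrium over blood per animal, a mean of 2 arrays, was tested against 0 with lmFit and eBayes. The labels pair tissues by animal, and deviations of paired preparations correlated at 0.209 to 0.618. With 4 animals an exact two-sided test cannot go below 0.125, and precision is limited by the number of animals. The fit was tested on simulated data.

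The 7 genes, the gene lists and the tests were chosen with earlier results of these data known. Genes were named as all probes of the 7 genes, up to 4 genes a list and direction with the largest ratios among p before adjustment of 0.05 or less and over 2-fold change, a few genes in any case (IL34, IL3, IL3RA, SPI1, CD14 and CD68), and the 5 genes most like CSF1R and CSF3R. The result of 1 gene is not reported here. Other genes were named for their role or after their values were seen. Of a gene with several probes in a list, the brightest was used. Probes were designed on the btau 2.1 assembly, and 13803 were renamed through RefSeq accessions of ARS-UCD2.0, without coordinates. Alternatives covered background, normalization, filter, block, slide, dye, technical replicate, animal and the methods' analysis of variance.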

Additional observations from a re-analysis of the deposited data

Results flagged for a closer look

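Of 27 sets of 4 values (the endometrial levels, the blood levels and the ratios of 9 probes), 9 had a value whose gap to the nearest other animal, divided by the range of the 4, was above Dixon's 95% critical value. That value is set so that about 1 in 20 sets of normally distributed values would pass it. In several of the 9 sets, such as CSF3 and LOC614896 in blood, the other animals lay near background. Background narrows their spread and makes the gap relatively larger, so the number 9 cannot be set against chance. All 9 values are those of animal 1, and the sets share animals and probes.

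In blood, animal 1 stood apart for CSF2 at 10.20 (6.40 to 6.68 in the other animals), CSF3 at 9.69 (5.89 to 6.04), CSF3R at 12.79 (6.48 to 6.65), LOC511847 at 11.59 (6.37 to 7.03), LOC614896 at 6.66 (6.10 to 6.15) and the second CSF2RB probe at 8.43 (6.11 to 6.28). In endometrium it stood apart for CSF3R at 7.98 (6.29 to 6.49). The log2 ratio of endometrium over blood stood apart for CSF3 at -3.49 (-0.04 to 0.01) and for CSF3R at -4.81 (-0.19 to -0.16). CSF1R and the first CSF2RB probe, though highest in animal 1, were not among the 9.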

How the results depend on the processing

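CSF1R was higher in endometrium under the 16 alternatives set out at the start, at 2.35 to 3.53, and the first CSF2RB probe and CSF3R were lower under all of them. The adjusted call of CSF1R changed in 2, so that 1 of the probes was called in place of 0. With slide, coded as the technical replicate, as a term the ratio was 2.76 (adjusted p = 0.0338), and with a dye term 2.75 (adjusted p = 0.0337). Both are limma fits to the 8 arrays with a correlation between arrays of an animal. They take the 2 arrays of an animal as separate observations, and called 501 and 793 of all tested probes in place of 11. With the authors' log2 values the ratio of CSF1R was 3.53 (adjusted p = 0.0643 in the limma fit). Without the pairing by animal (no replicate block) it was 2.76 with an unadjusted p of 0.124 and an adjusted p of 0.601 in limma, and the number of probes that passed at an unadjusted p fell from 1 to 0, as it did with the files as attached. It was 2 with the authors' log2 values or the scanner's processed signal, since CSF3R (-1.99) passed at an unadjusted p, and without single animals it was 1 to 2, the 2 without animal 4. Read as attached to the samples, an alternative chosen after seeing the data that exchanges the tissues of animals 1, 2 and 4, the files gave CSF1R -1.19, CSF3R 1.26, CSF1 0.14, CSF2 0.27, LOC511847 -0.22 and the second CSF2RB probe -0.01, and 0 pathway genes higher in endometrium and 1 in blood. CSF1, at -0.01, changed sign without background correction (0.01), with loess alone (0.10) and with technical replicate 1 alone (0.01), and CSF2, at -0.11, with the processed signal and with the authors' values (0.18 in both). Leaving out 1 animal gave CSF1 -0.10 to 0.06, CSF1R 2.35 to 3.22, CSF2 -0.89 to 0.81, LOC511847 -0.39 to 0.47, the first CSF2RB probe -1.49 to -0.52, the second -0.27 to 0.35, CSF3 -1.18 to -0.01 and CSF3R -1.73 to -0.18, and 3 to 5 pathway genes higher in endometrium and 4 to 14 in blood. The 4 and 9 pathway genes became 2 higher in endometrium without the block, 8 with the slide or the dye term, and 2 in each direction with the methods' analysis of variance. Over all probes, 0 to 793 were called in place of 11, and with loess alone 977 were higher and 585 lower at an unadjusted p in place of 878 and 851. The processed signal moved the median log2 ratio of all probes from -0.023 to -0.139. The cause of these changes was not tested. With 4 animals, differences like that of the first CSF2RB probe, whose ratio had the other sign in animal 4, could not be told from 0. Levels near background limit CSF3, CSF3R and LOC614896.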
